A study of Mus musculus with 31 samples.

Results

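The libraries described here are the mouse thalamus libraries at both ends of the range of Ttr, the transcript of transthyretin. The libraries were chosen by measured Ttr TPM (transcripts per 1000000, corrected for transcript length). It was ranked over all 31 libraries, and the 8 highest (the Ttr-rich side) were set against the 8 lowest (the Ttr-poor side). The other 15 libraries lay on neither side. The sides are libraries sorted by a measured value and not groups of the study, so the level of Ttr on each side is a consequence of the choice. The levels of other genes made by the same cells describe these libraries and give no independent evidence.

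The study measured polyadenylated RNA of the thalamus in offspring at postnatal day 90, whose mothers had the maternal housing called SIR (social isolation rearing) or were controls. The labels name no strain, genotype, litter or dissection batch, and no treatment of the offspring. The groups are SIR males, SIR females, control males and control females, and each library is labelled as a sample of its own. Nothing in them says which animals share a litter, so every p-value measures the spread between these animals. Animals that share a litter would be counted as independent, so p-values for maternal housing may be too small.

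The choroid plexus is a sheet of ciliated epithelium over a stroma of fibroblasts, vessels and macrophages. It hangs in the brain ventricles, also along the upper and medial face of the thalamus, and secretes cerebrospinal fluid. Its epithelial cells move sodium, bicarbonate, chloride and water through transporters and channels, carry folate into the fluid, and seal the blood from the fluid with tight junctions. Transthyretin, a carrier of thyroid hormone and of retinol-binding protein, is among their most abundant products and is scarce in brain tissue proper.

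The sequences shown are the 250 bases before the start site of the 4 tested plexus members whose values did not overlap between the sides. They are RefSeq sequences on build GRCm38.p6, printed 5′ to 3′ on the strand of the gene, and capitals mark a motif found by search. Slc4a5 encodes an apical sodium bicarbonate cotransporter, Cldn2 a tight junction claudin permeable to cations, Kcnj13 the potassium channel Kir7.1, and F5 coagulation factor V.
Slc4a5 (chr6:83237125-83237374, plus strand): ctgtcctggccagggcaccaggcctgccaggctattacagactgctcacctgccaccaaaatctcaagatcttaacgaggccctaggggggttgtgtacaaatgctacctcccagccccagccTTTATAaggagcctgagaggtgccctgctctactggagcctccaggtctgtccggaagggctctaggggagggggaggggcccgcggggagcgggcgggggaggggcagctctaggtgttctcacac
Cldn2 (chrX:139800558-139800807, plus strand): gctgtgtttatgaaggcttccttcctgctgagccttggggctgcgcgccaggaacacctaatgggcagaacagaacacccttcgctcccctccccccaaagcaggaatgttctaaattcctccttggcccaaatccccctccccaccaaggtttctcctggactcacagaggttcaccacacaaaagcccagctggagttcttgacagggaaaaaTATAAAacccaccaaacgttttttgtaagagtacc
Kcnj13 (chr1:87394730-87394979, minus strand): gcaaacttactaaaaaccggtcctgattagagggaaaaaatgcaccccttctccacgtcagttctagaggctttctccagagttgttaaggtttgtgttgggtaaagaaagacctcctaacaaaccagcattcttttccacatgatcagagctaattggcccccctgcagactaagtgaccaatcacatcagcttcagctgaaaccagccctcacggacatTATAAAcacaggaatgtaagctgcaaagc
F5 (chr1:164151585-164151834, plus strand): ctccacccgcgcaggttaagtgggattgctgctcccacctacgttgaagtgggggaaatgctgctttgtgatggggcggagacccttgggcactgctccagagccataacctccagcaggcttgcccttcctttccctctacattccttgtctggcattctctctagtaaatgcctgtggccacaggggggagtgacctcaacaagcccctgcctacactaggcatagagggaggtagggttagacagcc
Both strands were searched for TAATCC, the core recognised by Otx2, for TGTTTAC, a forkhead motif, and for TATAAA, the TATA box. The last was added after the letters had been read. Of the 12 plexus members with the smallest p, 9 had an entry that was used. TATAAA was found in 3 of these 9, namely Slc4a5, Cldn2 and Kcnj13, against 12.4% of all 32851 promoter windows of the same length. It began 35 bases before the start of Cldn2 and 29 before that of Kcnj13, while in Slc4a5 it lay on the opposite strand, with its letters beginning at 127 bases. TAATCC was found in 1 of the 9 (Apoe) against 6.25% of all windows, and TGTTTAC in 0 of the 9 against 3.17%. A match describes letters only and says nothing on binding.

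Ttr spanned a very wide range across libraries from 1 labelled tissue. On the rich side it was 70.1 TPM at the lowest, 143.7 at the median and 3220 in control female 20, where it took 0.161% of all counts. The next library, SIR female 11, had 448 TPM, followed by control female 26 with 209.5, SIR female 3 with 151.7, control female 29 with 135.7, control female 24 with 127.8 and control male 28 with 79.4. On the poor side Ttr ran from 0.0864 TPM (1 count, control male 27) over a median of 2.26 to 2.86 TPM in SIR male 13. The libraries next to the limits were control female 18 with 70.1 TPM just inside and SIR female 12 with 54.1 TPM just outside the rich side, and SIR male 13 with 2.86 TPM just inside and SIR female 9 with 2.95 TPM just outside the poor side. The poor limit thus fell between libraries of nearly equal level, and ranking by CPM (counts per 1000000) gave the same sides.

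**Figure D1:**
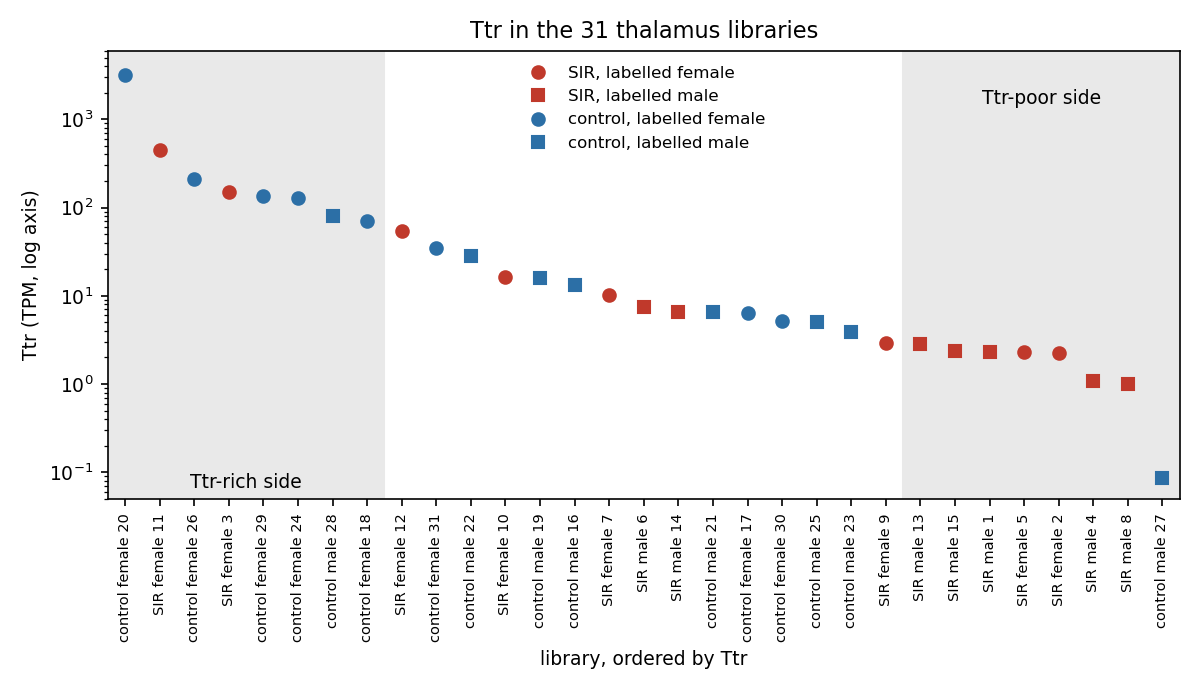
Ttr in TPM on a log axis for each of the 31 libraries, ordered from highest to lowest; colour gives the maternal housing, symbol the labelled sex, and grey marks the sides. Control female 20 stands at 3220 TPM, the other 7 rich libraries lie between 70.1 and 448 TPM, and the 8 poor libraries lie at or below 2.86 TPM.

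Housing and sex were unevenly spread over the sides. The rich side held 6 control and 2 SIR libraries, of which 7 were labelled female and 1 male (5 control females, 2 SIR females, 1 control male). The poor side held 7 SIR libraries and 1 control, of which 6 were labelled male and 2 female (5 SIR males, 2 SIR females, 1 control male). The 15 other libraries were 6 SIR and 9 control, and 7 labelled female and 8 male. The library labelled SIR female 5, on the poor side, held the Y-linked Ddx3y at 41.9 CPM, within the 31.4 to 49.8 of the 15 libraries labelled male. The other 15 libraries labelled female reached at most 0.0474 CPM. Any difference between the sides is therefore also a difference between mostly female and mostly male, and mostly control and mostly SIR animals, and the 3 cannot be told apart in the comparison of sides alone.

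Over all libraries, Ttr was 2.85 ± 2.60 log2 TPM in SIR (SD, n = 15) and 4.503 ± 3.35 in control offspring (n = 16). The difference of -1.65 had p = 0.137 in a two-sided permutation test, and p = 0.246 with a difference of -1.17 without control female 20. By labelled sex the means were 5.18 ± 3.03 in females (n = 16) and 2.13 ± 2.31 in males (n = 15). Females were higher by 3.05 on the log2 scale, and by 2.62 without control female 20. This is a description by label, with the library labelled SIR female 5 among the females, and was looked at after the make-up of the sides had been seen.

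Total counts overlapped between the sides. Total counts, in units of 1000000, were 20.63 to 25.74 on the rich side and 19.03 to 24.32 on the poor side (p = 0.845, two-sided exact permutation test of the means). Another library measure differed between them: the slope of expression on log2 effective transcript length was 0.0113 ± 0.0176 on the rich and -0.0385 ± 0.0227 on the poor side (SD, n = 8 each; p = 0.000311, two-sided exact permutation test). Long transcripts were thus relatively better represented on the rich side. Counting error limits all genes named below with few counts.

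Between the sides, single genes tied to plexus epithelium had high fold changes, up to 5.86 on the log2 scale for Kcnj13, yet none passed the test. Kcnj13, Cldn2, Slc4a5 and Folr1 had poor medians of at most 0.125 CPM and were highest in control female 20, and the medians of the 4 plexus lists were 0.15 to 0.29. Of 92 genes on 4 choroid plexus lists (transport, secreted proteins, receptors and adhesion, transcription factors), 75 were tested. edgeR's quasi-likelihood test with Benjamini-Hochberg adjustment called 0 of the 75. Over all 14447 genes it called 1 higher (0.00692%) and 0 lower (0%). At an unadjusted p under 0.05 there were 22 members higher and 5 lower, where all genes gave 10.7% higher and 9.17% lower. These shares over all genes also stand beside the counts of each list below. Of the 14447 genes, 7185 had a positive log2 fold change. The median log2 fold change, rich against poor, was 0.19 over the 75 members and -0.001 over all genes tested. Over the plexus members tested it came to 0.07 without control female 20, and to 0.06 with the sides retaken from 30 libraries. With labelled housing and sex in the model it was 0.06, and with the length slope in the model 0.07. For 4 of the 75 members every rich library lay above every poor one, and for 0 every one lay below, against 0.125% and 0.118% of all genes. Members absent from the poor side could pass the filter on low counts only through the rich libraries (12 of the 75 were below the filter's level in at least 1 poor library), so these counts are no support for a direction. In bulk tissue, fewer plexus cells and less plexus RNA per cell cannot be told apart.

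**Figure D2:**
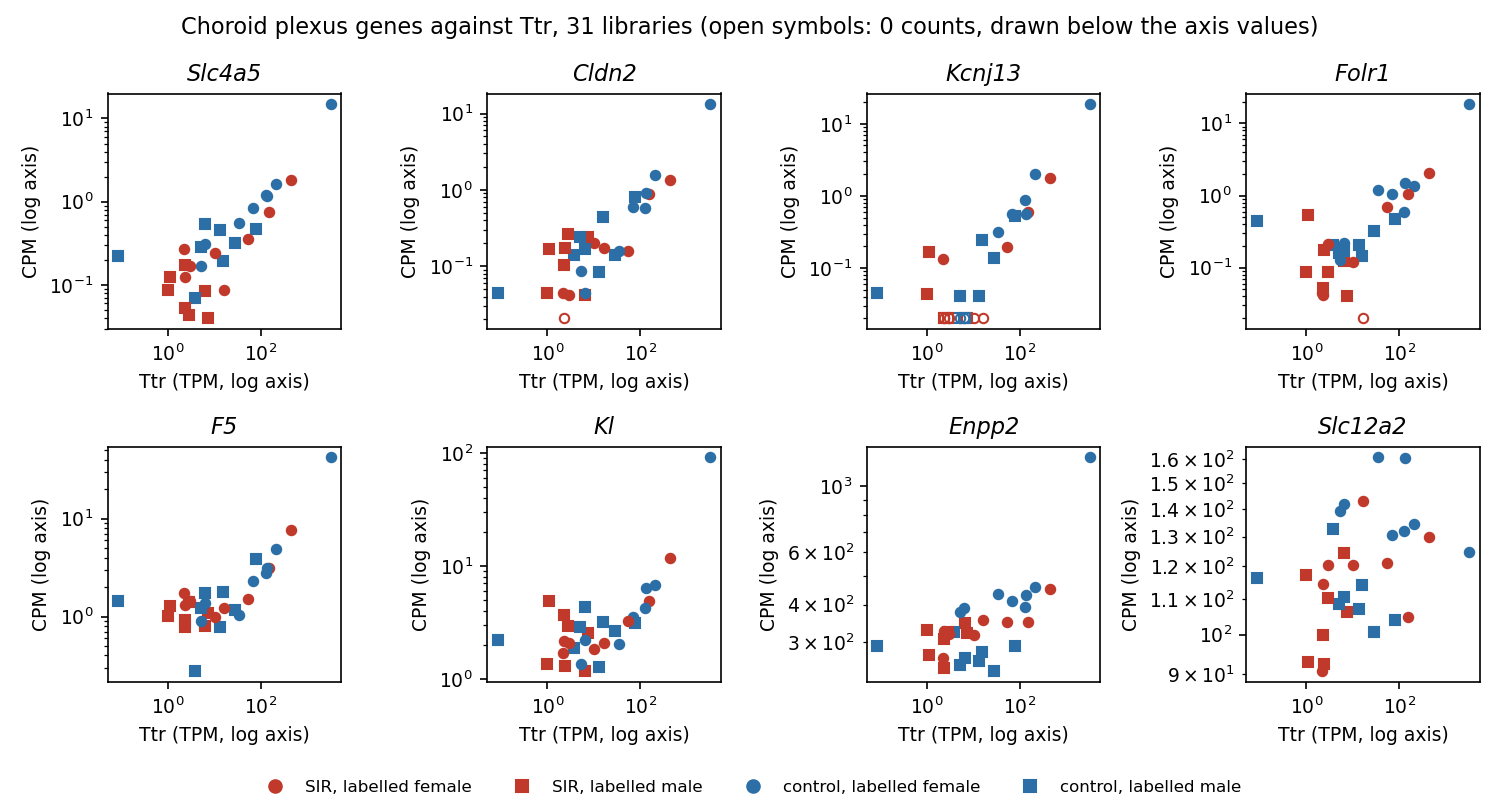
CPM of 8 plexus genes against Ttr TPM in 31 libraries, both on log axes; colour gives housing, symbol labelled sex, and open symbols mark 0 counts. Slc4a5, Cldn2, Kcnj13, Folr1, F5 and Kl tend to follow Ttr among the rich libraries, and their poor values are mostly lower. Folr1 and Kl overlap between the sides, with poor values up to 0.538 CPM and 4.88 CPM. Slc12a2 stays between 90.7 and 160.4 CPM on both sides.

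Among the transport genes, 11 of 20 tested members were higher and 1 lower at an unadjusted p under 0.05, with a list median of 0.23. Slc4a5 was 0.476 CPM at the lowest, 1.20 at the median and 14.8 at the highest on the rich side, and 0.0435, 0.125 and 0.269 on the poor side. The sides did not overlap, and the highest value was that of control female 20, with the next at 1.85. The log2 fold change was 4.31 ± 0.83 (SE), with an adjusted p of 0.0576 in edgeR. Without control female 20 it was 2.99 with an adjusted p of 0.00157 in edgeR, so the fold was smaller and passed when that library was left out.

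Kcnj13 was 0.523, 0.733 and 18.7 CPM on the rich side (lowest, median, highest) and 0, 0.022 and 0.165 on the poor side, where 4 of 8 libraries had no count. Its log2 fold change was 5.86 ± 1.17 (SE; edgeR adjusted p = 0.0576), and 4.17 without control female 20 (edgeR adjusted p = 0.00322). Car12, a membrane-bound carbonic anhydrase, was 1.15, 2.19 and 25.9 CPM against 0.262, 0.677 and 1.53. Here 6 of the 8 rich libraries lay above the highest poor one, and the log2 fold change was 2.90 ± 0.70 (SE; edgeR adjusted p = 0.0655). Slc12a2, the sodium potassium chloride cotransporter NKCC1, also present in other brain cells, was 104.1, 130.2 and 160.4 CPM against 90.7, 105.1 and 117.3. Its log2 fold change was 0.29 ± 0.08 (edgeR adjusted p = 0.0843), and its highest value was in control female 29.

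Other transport genes were high in control female 20 above all. Aqp1, the water channel of the apical membrane, was 8.96 CPM there and at most 1.28 in the 7 other rich libraries, against a poor range of 0.126 to 0.703. Clic6, a chloride channel protein, was 68.8 CPM there and at most 12.4 in the others, against 2.49 to 13.5 on the poor side. Atp1b1, a sodium pump subunit of many cells, did not separate at all: it was 1587 to 2021 CPM on the rich and 1653 to 2054 CPM on the poor side.

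Among the secreted proteins and enzymes, 5 of 26 tested members were higher and 4 lower at an unadjusted p under 0.05, with a list median of 0.15. F5 was 2.31, 3.49 and 42.2 CPM on the rich side and 0.786, 1.29 and 1.75 on the poor side, without overlap. Its log2 fold change was 2.82 ± 0.65 (SE; edgeR adjusted p = 0.0629), and 1.68 without control female 20 (edgeR adjusted p = 0.00424). The gene listed as 1500015O10Rik encodes augurin (Ecrg4), a secreted peptide precursor. It was 0.333, 1.41 and 18.4 CPM against 0, 0.118 and 0.539, and 7 of the 8 rich libraries exceeded the highest poor one. Its log2 fold change was 4.07 ± 0.89 (edgeR adjusted p = 0.0576).

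Folr1, the folate receptor of the plexus and also on the list of secreted proteins, was 0.476, 1.20 and 18.5 CPM against 0.042, 0.0875 and 0.538. The log2 fold change was 4.10 ± 0.93 (SE; edgeR adjusted p = 0.0588), and 2.57 without control female 20 (edgeR adjusted p = 0.028). Enpp2, which encodes autotaxin and is also made by oligodendrocytes, was 290.2, 421.1 and 1247 CPM against 244.5, 298.6 and 328.5. The log2 fold change was 0.78 ± 0.25 (edgeR adjusted p = 0.114), and 0.43 without control female 20 (edgeR adjusted p = 0.0453).

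Some members that are abundant in brain tissue proper had values near or below 0. Apoe, the lipid carrier made mostly by astrocytes, was 1380, 1578 and 1845 CPM on the rich and 1650, 1834 and 2167 CPM on the poor side. Its log2 fold change was -0.24 ± 0.07 (edgeR adjusted p = 0.0922), and it came to 0.01 with the length slope in the model. Chmp1a, a subunit of the membrane-remodelling complex ESCRT-III, was 70.5, 75.2 and 78.8 CPM against 76.7, 81.6 and 88.3 (log2 fold change -0.11 ± 0.04, edgeR adjusted p = 0.106). Clu, the chaperone clusterin, overlapped fully, with 679.5 to 1076 CPM against 786.4 to 991.3.

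Among receptors and adhesion genes, 4 of 19 tested members were higher and 0 lower at an unadjusted p under 0.05, with a list median of 0.29. Cldn2 was 0.584, 0.892 and 13.3 CPM on the rich side and 0, 0.0748 and 0.261 on the poor side, without overlap. Its log2 fold change was 4.49 ± 0.89 (SE; edgeR adjusted p = 0.0576), and 3.12 without control female 20 (edgeR adjusted p = 0.00262). Kl encodes Klotho, co-receptor of fibroblast growth factor 23, and was 3.14, 5.64 and 91.2 CPM against 1.31, 2.19 and 4.88. With control female 20 the log2 fold change was 2.70 ± 0.78 (edgeR adjusted p = 0.0948), and without it 1.20 (edgeR adjusted p = 0.061). Prlr, the prolactin receptor, was 70.7 CPM in control female 20 and at most 19.3 in the other rich libraries, against at most 17.99 on the poor side. Htr2c, a serotonin receptor of plexus and of neurons, was 40.1 to 102.1 CPM against 45.6 to 91.3, with a log2 fold change of 0.09.

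Of the 10 transcription factors tested, 2 were higher and 0 lower at an unadjusted p under 0.05, with a list median of 0.15. Otx2, needed to form and keep the plexus, was 12.6 CPM in control female 20 and at most 6.73 in the other rich libraries, against 3.87 to 5.54 on the poor side (log2 fold change 0.42 ± 0.18, edgeR adjusted p = 0.203). Msx1 was 9.33 CPM in control female 20 and at most 2.42 in the others, against 0.703 to 1.74. Foxj1, the regulator of motile cilia, had a log2 fold change of 0.08.

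The 17 members that were not tested had too few counts or no identifier in the annotation. Kcne2, a potassium channel subunit of the plexus, had 4 to 206 counts per rich library and 0 to 2 per poor library, with 5 of the 8 poor libraries at 0. Every rich library lay above every poor one. Wfdc2, a secreted protease inhibitor, had 1 to 79 counts on the rich and 0 to 2 on the poor side, and 79 of the 105 rich counts were from control female 20. Over the 91 members with counts, control female 20 was the highest of all 31 libraries for 65, and it was more than 2 times the next library for 36. The share over all genes is not given here, and this library stands out by its Ttr. These counts thus describe 1 library and are no result about the members.

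Leaving out control female 20, as the rule for these libraries asks, edgeR called 211 of 14496 genes (1.46%), of which 120 were higher (0.828%) and 91 lower (0.628%) on the rich side. Of 75 plexus members tested, 8 were higher and 0 lower: Slc4a5, Cldn2, Kcnj13, 1500015O10Rik, Folr1, F5, Car12 and Enpp2. Here too, members nearly absent from the poor side could pass the filter only through the rich libraries, which were chosen by Ttr. Such counts of members are again no support for a direction. Leaving out SIR female 3 or control male 28 also gave 8 members, among 422 and 423 genes called, and leaving out the library labelled SIR female 5 gave 2 among 90. Without SIR female 2 it was 0 among 9, and without any of the 11 others 0 among 1. With both sides drawn again from the 30 libraries without control female 20, 507 genes were called (3.51%; 1.92% higher, 1.58% lower), with 5 of 72 members higher and 1 lower. DESeq2 on the 16 libraries called 709 of 10917 genes (6.49%; 3.88% higher, 2.61% lower), with 2 of 42 members higher and 2 lower.

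**Figure D3:**
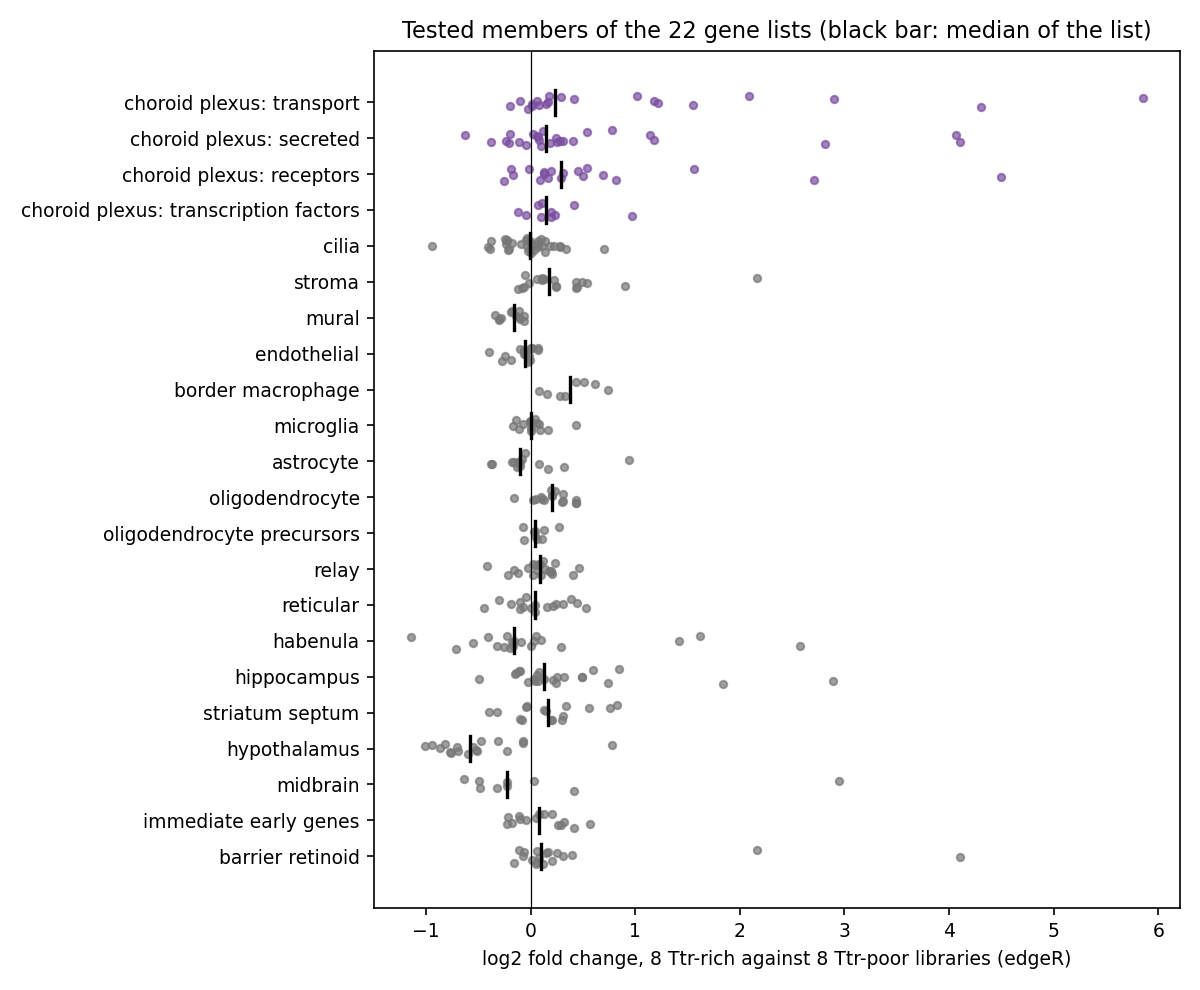
Log2 fold change, Ttr-rich against Ttr-poor libraries, of each tested member of the 22 gene lists (points; choroid plexus lists in purple, others in grey), with the median of each list as a black bar. The 4 plexus lists have long tails to the right, up to 5.86 for Kcnj13, beside medians from 0.15 to 0.29.

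The plexus transcripts differed in how closely they kept to Ttr within the rich side. Expressed per length as TPM per 1000 Ttr TPM, Kl was 10.2 to 19.4 over the 8 libraries, a 1.90-fold range, while Ttr itself spanned 70.1 to 3220 TPM. Mfrp, a membrane frizzled-related protein on none of the lists, was 4.71 to 8.83, a 1.88-fold range. Kcnj13 was 6.86 to 19.2, Cldn2 1.91 to 6.39, Folr1 12.3 to 42.1 and Slc4a5 1.70 to 7.89 per 1000 Ttr TPM. These 6 ratios stayed within 4.64-fold, as did those of F5 (3.56-fold) and 1500015O10Rik (3.82-fold). Some other plexus members ranged more widely: Kcne2 5.10-fold, Slc13a4 6.05-fold, Car12 6.08-fold and Calml4 6.69-fold. Enpp2 in contrast was 309 to 4482 per 1000 Ttr TPM (14.5-fold), Apoe 1466 to 61604 (42.0-fold) and Slc12a2 13.9 to 638 (45.8-fold). Over the same libraries Apoe itself was 3337 to 4719 TPM, Slc12a2 35.4 to 54.8 TPM and Enpp2 228.2 to 993.4 TPM. These ratios describe genes that were high where Ttr was high by choice of libraries.

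**Figure D4:**
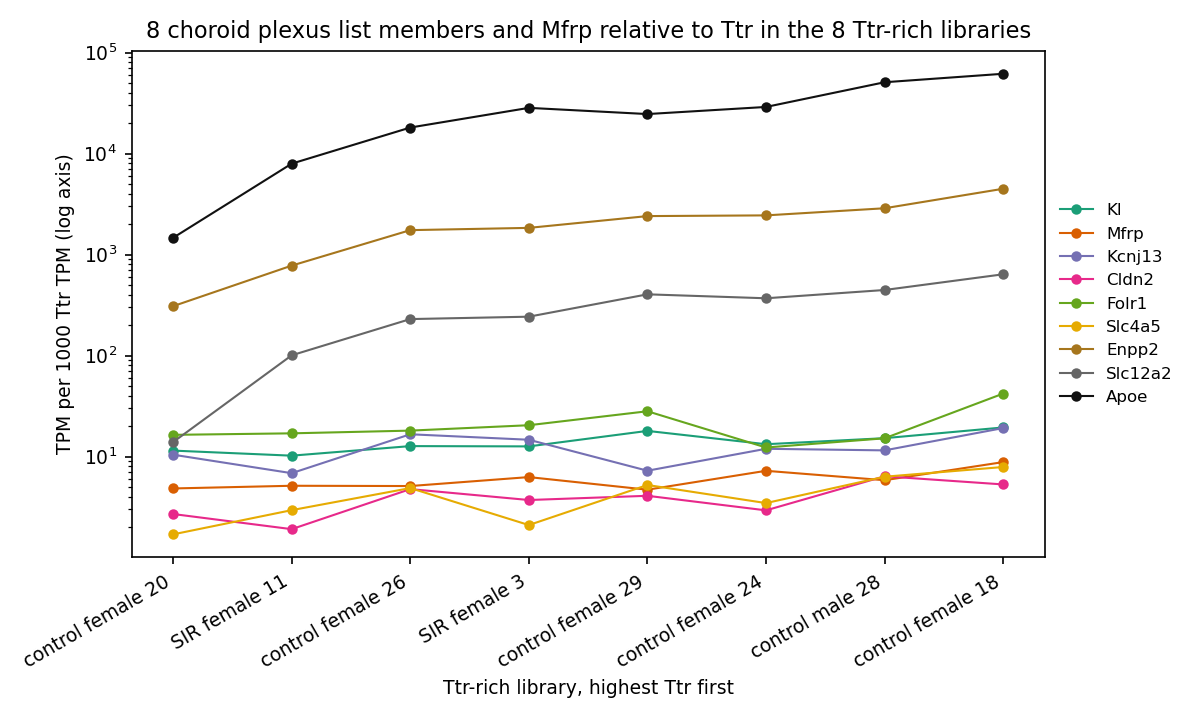
TPM of 8 choroid plexus list members and of Mfrp per 1000 Ttr TPM in each of the 8 Ttr-rich libraries, on a log axis, with the library of highest Ttr on the left. Kl and Mfrp are nearly level (1.90-fold and 1.88-fold ranges), whereas Apoe, Enpp2 and Slc12a2 climb as Ttr falls, by 14.5-fold to 45.8-fold.

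With labelled housing and sex in the comparison of sides, no gene passed in edgeR (0 of 14447, 0%; 411 at an unadjusted p under 0.05). Slc4a5 then had a log2 fold change of 2.04 ± 1.19, Cldn2 of 3.15 ± 1.51, Kcnj13 of 3.24 ± 1.71 and F5 of 1.64 ± 1.08 (SE; edgeR adjusted p = 1 for each). The values kept their sign with larger errors. Expression was therefore also fitted as a slope on log2 Ttr TPM over all 31 libraries with the 4 group means in the model, a fit added after the make-up of the sides had been seen.

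That slope was called for 15 genes in edgeR, all higher with Ttr (0.101% of 14885), and 8 of them were plexus members of 78 tested. Per doubling of Ttr, log2 CPM was higher by 0.89 ± 0.08 for Kcnj13, 0.71 ± 0.05 for Cldn2, 0.50 ± 0.08 for Folr1, 0.49 ± 0.05 for Slc4a5 and 0.49 ± 0.08 for 1500015O10Rik (SE). The slope was 0.38 ± 0.06 for Kl, 0.36 ± 0.06 for F5 and 0.34 ± 0.07 for Car12. The edgeR adjusted p ran from 1.73e-10 for Cldn2 to 0.045 for Car12. The 7 others were Mfrp (0.59), Thbs4 (0.25), Wfikkn2 (0.22), Ak8 (0.19), Drd1 (0.15), Ltc4s (0.15) and Adora2a (0.12). Drd1 and Adora2a are dopamine and adenosine receptors of striatal neurons.

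Without the group means, the slope was called for 52 of 13942 genes (0.373%; 0.33% higher, 0.043% lower) and for 13 members. The calls with group means depended on 2 libraries. Without control female 20 the slope was called in edgeR for 4 of 14864 genes (0.0269%), namely Cldn2 (0.62), Kcnj13 (0.83), Mfrp (0.44) and Slc4a5 (0.35), of which 3 are plexus members. Without control male 27, the library with 1 Ttr count, it was called for 28 genes, 16 of them plexus members. With any other library left out, 11 to 22 genes and 7 to 11 members were called.

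**Figure D5:**
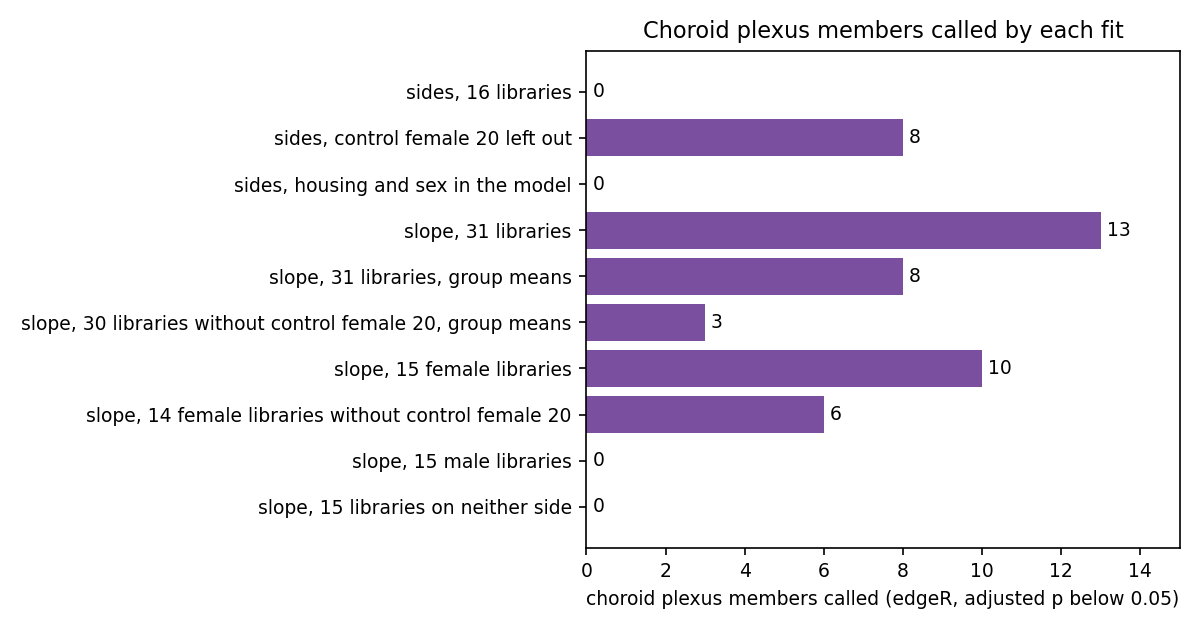
Number of choroid plexus members called by edgeR at an adjusted p below 0.05 in each of 10 fits; bars start at 0. The comparison of the sides called 0 members, the slope over 31 libraries with group means 8, and the slopes in males and in the libraries on neither side 0.

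The slope was called in libraries of females and not in those of males. In the 15 female libraries other than the one labelled SIR female 5, with housing in the model, edgeR called 12 of 14490 genes (0.0828%), all higher with Ttr, and 10 of them were plexus members. They included Slc13a4, a sulfate transporter (0.34), and Calml4, a calmodulin-like protein (0.38), besides the 8 above. Without control female 20, 7 genes (0.0484%) and 6 members were called in 14 females. In the 15 male libraries, where control male 28 alone exceeded 30 TPM of Ttr, edgeR called 0 of 14502 genes (0%; 589 at an unadjusted p under 0.05). For Kl the slope was 0.55 ± 0.06 in females and 0.01 ± 0.08 in males, and for Car12 0.51 ± 0.07 and 0.00 ± 0.10.

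The difference between the female and the male slope was tested itself. It passed in edgeR for 2 of 14864 genes, both with the higher slope in females (0.0135%): 1500015O10Rik (0.80 ± 0.13, adjusted p = 0.00991) and Folr1 (0.76 ± 0.13, adjusted p = 0.0181). In control male 27 Folr1 was 0.449 CPM and 1500015O10Rik 0.539 CPM with 1 Ttr count, and in SIR male 4 they were 0.538 CPM each at 1.09 TPM of Ttr. For the 8 other plexus members called in females the adjusted p of this difference was 0.205 or more in edgeR.

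The 15 libraries on neither side were not among those compared, but the same ranking by Ttr set them apart. Their Ttr was held to a narrow range by that choice, from 2.95 to 54.1 TPM. A lack of calls there thus decides nothing about the comparison of the sides. The slope on log2 Ttr was called for 0 of 13699 genes in edgeR (0%), with 251 genes at an unadjusted p under 0.05, and limma-voom also called 0, with 252. Of the plexus members 63 were tested, and none passed. Slc13a4 (0.27, unadjusted p = 0.011), Igf2 (0.09, unadjusted p = 0.0144) and Perp (0.13, unadjusted p = 0.0476) had unadjusted p under 0.05 in edgeR, each with an adjusted p of 1. Kl had a slope of 0.09 and F5 of 0.09. Slc4a5, Cldn2, Kcnj13, Folr1, 1500015O10Rik and Car12 were below the filter on low counts there, so that fit did not test them. Without a filter, edgeR called the slope for 0 of 21035 genes in these libraries, with 890 at an unadjusted p under 0.05. Kcnj13 had no count in 9 of the 15 and at most 5 counts.

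The genes with the smallest unadjusted p in that slope were, with higher expression at more Ttr, Slc35c2, Mcoln1, Zdhhc9, Sept9, Lrrc55 and Dennd2d. With lower expression they were Arhgef1, Cenpu, Abhd12b, Gpr183, Syde2 and Palld. The smallest was that of Slc35c2 (slope 0.08, unadjusted p = 0.000452, edgeR). It lay at 33.2 to 42.7 CPM on the rich and 37.7 to 42.8 CPM on the poor side, with a log2 fold change of the opposite sign (-0.13).

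Maternal housing was compared for the plexus genes with and without Ttr in the model, over 31 libraries as the mean of both labelled sexes. Without Ttr, 3 of 78 tested members were lower in SIR offspring in edgeR, where 4.62% of 14885 genes were called (2.85% lower and 1.77% higher). They were Slc4a5 (log2 fold change -2.15 ± 0.62, adjusted p = 0.0451), Prlr (-0.65 ± 0.19, adjusted p = 0.045) and Lmx1a (-2.40 ± 0.47, adjusted p = 0.0123). With log2 Ttr in the model, 1 of 78 was lower, where 2.39% of all genes were called (1.64% lower and 0.752% higher).

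Lmx1a, a transcription factor of the roof plate and of midbrain dopamine neurons, was then also called (-2.53 ± 0.49, edgeR adjusted p = 0.0169). Slc4a5 came to -0.94 ± 0.36 (edgeR adjusted p = 0.132) and Prlr to -0.46 ± 0.18 (edgeR adjusted p = 0.154). For Kcnj13 the housing difference was -2.50 without and -0.24 with Ttr in the model, for Cldn2 -1.68 and 0.16, and for Kl -1.05 and 0.03, none of them called. Without control female 20, 7 members were called without Ttr, where 7.02% of 14864 genes were called (3.05% higher, 3.97% lower). With Ttr 3 members were called, where 4.02% of genes were (1.61% higher, 2.41% lower). Lmx1a itself was 0.126, 0.569 and 3.37 CPM on the rich side, highest in control female 26, and 0.042, 0.158 and 1.17 on the poor side.

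Other cell types of the plexus and its surroundings were examined through further lists, and edgeR called 0 of the 285 tested members of the 18 other lists that are on no plexus list between the sides. Without control female 20 it called 3 of 286, where 1.46% of all genes were called. The 3 were Chat (2.47, edgeR adjusted p = 0.0453), Slc7a10 (-0.39, adjusted p = 0.0453) and Fa2h (0.31, adjusted p = 0.0492). With the sides drawn again from 30 libraries it called 7 of 284, where 3.51% of all genes were called. The 7 were these 3 with Slc5a7, Gfap, Aqp4 and Ermn. The median log2 fold change was 0.18 for 20 stromal fibroblast genes, with Igfbp6 at 0.90 and Lum at 0.43. It was 0.38 for 8 genes of border-associated macrophages, all 8 positive, with H2-Aa at 0.74 and Mrc1 at 0.33. Of those 8, 4 were below the filter's level in at least 1 poor library, and 7 of the 15 listed were not tested. Members low on the poor side could pass the filter through the rich libraries, so these signs are no support for a direction. Over all genes, 7185 of 14447 were positive. Mural cell genes had a median of -0.16, with 0 of 12 positive, and endothelial genes one of -0.06, with Plvap, a gene of fenestrated vessels such as those of the plexus, at -0.39 ± 0.13 (edgeR adjusted p = 0.11). For the 34 genes of motile cilia the median was -0.01, with Dnah12 at 0.70 and Rsph9 at -0.40.

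Genes of regions near the thalamus were examined in the same way. Chat, the acetylcholine-synthesising enzyme, was 0.476, 2.06 and 5.45 CPM on the rich and 0.0437, 0.323 and 0.914 CPM on the poor side (log2 fold change 2.57 ± 0.48, edgeR adjusted p = 0.0576). The choline transporter Slc5a7 had a log2 fold change of 1.62 ± 0.36 (edgeR adjusted p = 0.0576). Chat and Slc5a7 are on the habenular list, of which only 8 of 20 tested members were positive. Neurod6, of hippocampal and cortical neurons, was 0.143, 1.61 and 10.2 CPM against 0.174, 0.356 and 0.763 (2.89 ± 0.72, edgeR adjusted p = 0.0677). The hypothalamic list had a median of -0.58 with 1 of 18 positive, where 7185 of all 14447 genes were. The midbrain list had one of -0.22, the habenular list one of -0.16, the relay neuron list one of 0.09 and the reticular list one of 0.04. Hippocampal and striatal lists had medians of 0.13 and 0.17. What part such regional differences have in the comparison was not tested.

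Glial lists had small shifts. Of the 16 oligodendrocyte genes 15 were positive and 9 were higher at an unadjusted p under 0.05 in edgeR, with a median of 0.21. Over all genes, 7185 of 14447 were positive and 10.7% were higher at that p. Fa2h was 72.4 to 92.3 CPM against 58.0 to 80.0 (0.31 ± 0.07, edgeR adjusted p = 0.0576), and Ermn and Ugt8a had 0.43 each. Astrocyte genes went both ways: Gfap was 79.1 to 256 CPM against 38.9 to 101, while Slc7a10 was 29.9 to 44.7 CPM against 42.3 to 59.0. The medians were 0.01 for microglia, 0.04 for oligodendrocyte precursors, 0.08 for immediate early genes and 0.10 for the list of vitamin A, folate, iron and thyroid hormone handling, with Stra6, the retinol transporter, at 0.39.

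The gene called between the sides was Erbb3, the neuregulin receptor of the oligodendrocyte lineage, which is on no list. It was 28.01, 37.2 and 41.8 CPM on the rich side and 21.2, 26.1 and 27.1 CPM on the poor side, without overlap. The log2 fold change was 0.53 ± 0.07 (SE; edgeR adjusted p = 0.0113), higher than the poor median in 8 of 8 rich libraries. With housing and sex in the model it was 0.24 (edgeR adjusted p = 1), and its slope in the libraries on neither side was -0.04 (unadjusted p = 0.539).

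Among the next genes on no list by smallest p were Kdm6a, Atp7a, Med13, Ypel2, Ddx3x, Vxn, Ankrd33b, Zeb2, Hhip and Cnksr2 with positive values. Their log2 fold changes ran from 0.31 to 0.89, each with an edgeR adjusted p of 0.0576. Kdm6a and Ddx3x have copies on the Y chromosome and are known to be expressed from both X chromosomes. Negative values were found for Maged2, Pth1r, Rpl36, Inafm1, Camk2n2, Ube2s, Pfn4, Rpl27, St6galnac6, Clpp, Ssr4 and Serp2, from -0.41 to -0.19, with the same adjusted p in edgeR. Rpl36 and Rpl27 encode ribosomal proteins. Of the 116 genes with an adjusted p under 0.06, 11 were X-linked and 1 Y-linked, and of the 14447 tested 493 and 7. The unequal numbers of females and males on the sides move with these genes.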

How the data were processed

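The authors quantified transcripts with kallisto after FastQC, on build GRCm39, per the submitters' processing notes. Tool versions and strand use were not given in the sources used here. Each deposited table has 1 estimated count and 1 TPM value, per the file headers, for 105878 transcripts. Of these, 104949 (99.12%) were matched by identifier to GENCODE M21 (a GRCm38 annotation used for names only) and summed into 25497 genes; the rest took 0.689% to 0.755% of counts. Total counts per library, in units of 1000000, were 13.00 to 25.74, with a median of 23.28.

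Libraries were ranked by summed Ttr TPM, and the 8 highest were compared with the 8 lowest. Ttr (1 transcript) was removed before scaling and testing. After rounding, edgeR 4.0.16 (R 4.3.3) tested the counts (TMM scaling, filterByExpr with a minimum count of 10, robust quasi-likelihood test, Benjamini-Hochberg adjustment over all genes, threshold 0.05). The standard error is the absolute log2 fold change divided by the root of the F statistic. Levels are CPM (counts per 1000000) on TMM-scaled totals. Single values were tested by permuting libraries (scipy 1.17.1), exactly or with 100000 resamples. Fits were tested on simulated data.

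Alternatives were other scalings and filters, DESeq2 1.42.0, limma 3.58.1 (voom, and trend on log2(TPM + 1)), covariates, and leaving out each library. The slopes on log2 Ttr with group means, within a sex and between sexes were chosen after seeing the data. The members, the sides and the gene lists were chosen with earlier results of these data known. The rule named the 12 plexus members with the smallest p in full, the 12 genes on no list with the smallest p in each direction (without unnamed gene models, Y-linked genes and Xist), up to 4 members of each other list, and up to 6 genes per direction in the slope over the libraries on neither side; further plexus members were given by range. Mfrp was named after its values were seen. One gene that the rule names is not reported here.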

Additional observations from a re-analysis of the deposited data

Results flagged for a closer look

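Of 74 sets of 8 values examined (a gene on 1 side), 15 had an extreme library by Dixon's criterion, where chance gives about 1 in 20 for independent sets. These sets are not independent: they share libraries, and the rich libraries were chosen by Ttr, so the number says nothing on chance. The gap of the extreme library to the nearest other, as a share of the whole range, exceeded the critical value in these. In 10 sets the extreme was control female 20, the highest of the rich side: 0.88 for Ttr, 0.905 for Slc4a5, 0.923 for Cldn2, 0.917 for Kcnj13, 0.812 for 1500015O10Rik, 0.914 for Folr1, 0.865 for F5, 0.836 for Car12, 0.902 for Kl and 0.825 for Enpp2. Control male 28, the 1 male on the rich side, was the lowest there for the X-linked Ddx3x (0.648) and for Hhip (0.588). On the poor side SIR female 2 was the highest for Ddx3x (0.556), SIR male 1 for Ssr4 (0.54) and SIR male 4 for Car12 (0.534).

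The slope on log2 Ttr differed between female and male libraries, tested as an interaction in edgeR, for 1500015O10Rik (0.80, adjusted p = 0.00991) and Folr1 (0.76, adjusted p = 0.0181). Both genes had 0.449 CPM or more in SIR male 4 and control male 27, which were among the libraries poorest in Ttr. How far the difference depends on single libraries was not tested.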

How the results depend on the processing

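No paired analysis was possible because the groups share no replicate numbers. Between the sides edgeR called 1 gene and 0 plexus members. RLE and upper-quartile scaling, library totals alone, limma-voom, a stricter filter on counts, no robust estimation and sides by Ttr CPM gave the same counts. The genes called were 2 without a filter, 709 with DESeq2, 7 with limma-trend, 665 at a threshold of 0.1, 507 with the sides retaken from 30 libraries, and 0 with housing and sex (411 at an unadjusted p under 0.05) or with the length slope (373) in the model. The plexus members called were 4 with DESeq2, 10 at a threshold of 0.1 and 6 with the sides retaken. The slope on log2 Ttr called 52 genes and 13 members over 31 libraries, 15 and 8 with group means, 4 and 3 without control female 20, 12 and 10 in 15 females, 7 and 6 in 14 females, 0 and 0 in males (589 at an unadjusted p under 0.05), and 2 genes for female minus male. Leaving out 1 library gave 1 to 423 genes and 0 to 8 members between the sides, and 4 to 28 genes and 3 to 16 members for the slope with group means. For housing, leaving out a library (control female 20 or the library labelled SIR female 5) gave 1 to 7 members without Ttr in the model and 1 to 3 with it (the 7 and 3 where 7.02% and 4.02% of all genes were called), and limma-voom gave 1 without Ttr. Apoe turned from -0.24 to 0.01 with the length slope in the model, and Erbb3 came to 0.24 with housing and sex and 0.30 with the length slope, no longer called. The cause was not tested. Low counts limit Kcnj13, Kcne2 and Wfdc2 on the poor side.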

Other observations

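Several genes of regions beside the thalamus were high in single libraries. Slc6a3, the dopamine transporter of midbrain neurons, was 42.5 CPM in control female 29 and at most 2.33 in the other 7 rich libraries. Crym was also highest there among the rich libraries, at 13.8 CPM, and so was Neurod2, at 8.30 CPM, while Neurod6 was highest in control female 20, at 10.2 CPM. The cholinergic genes Chat (5.45 CPM), Slc5a7 (8.96 CPM) and Slc18a3 (3.15 CPM) had their highest rich values in control female 18, the library with the least Ttr on that side.

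On the poor side, SIR male 4 had 1.09 TPM of Ttr but the highest value of that side for several plexus members: Kl at 4.88 CPM, Clic6 at 13.5 CPM, Slc13a4 at 5.58 CPM, Car12 at 1.53 CPM and Calml4 at 1.08 CPM. Its Clic6 and Slc13a4 exceeded those of 7 of the 8 rich libraries.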
